A study of Mus musculus with 8 samples.

Results

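The mouse mitochondrial genome is a small circular DNA that every cell holds in many copies, and its genes were followed here from E12.5, an embryonic day of gestation, to P0, the day of birth, in the cells that form the nucleus pulposus (NP) of the intervertebral disc. They were chosen by symbol, as all genes whose symbol begins with mt-. The rule found 37 of the 43346 gene identifiers counted, and these were 13 protein genes, 2 ribosomal RNA (rRNA) genes and 22 transfer RNA (tRNA) genes. Notochord-derived cells of Shh-cre;ROSA:YFP mice were sequenced from 4 litters at each stage, each library holding the pooled animals of 1 litter. The cre is driven by Shh, so YFP marks cells that express Shh and their descendants, and animals of both stages carry both alleles. The E12.5 libraries were made from whole notochords dissected straight into TRIzol and the P0 libraries from NP cells dissociated mechanically and sorted for YFP, so stage and isolation cannot be told apart. The E12.5 litters are NDP10.2, NPD3, NPD4 and NPD9.2, and the P0 litters are NPD26, NPD27, NPD28 and NPD30.

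Mitochondrial DNA is transcribed from both strands into long RNAs that span many genes. Most protein and rRNA genes are bordered by tRNA genes, and cutting out the tRNAs releases the RNAs between them. The proteins are subunits of respiratory complexes I, III and IV and of ATP synthase, which nuclear genes complete, and the rRNAs build the mitochondrial ribosome that translates them. Pieces of mitochondrial DNA have also been copied into the nuclear chromosomes, where they remain as pseudogenes. A read that fits both a gene and such a copy has no single place in the genome, and a read that spans 2 neighbouring genes belongs to neither alone.

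The authors counted single-end reads of 100 bases per gene with htseq-count, which sets aside reads with more than 1 alignment and, in its default mode, reads that overlap more than 1 gene. The mode and strand setting are not given in the sources used here. Of the 37 genes, 13 had a read in at least 1 litter and 24 were listed at 0 in all 8. The 24 were 18 tRNA genes and the protein genes mt-Co2 and mt-Co3 (complex IV), mt-Atp6 and mt-Atp8 (ATP synthase), and mt-Nd3 and mt-Nd4l (complex I). These 0s are a property of the counted table and give no level for these RNAs. The sequences that bear on this are printed here as transcribed, from Gencode M21 transcripts on GRCm38. The whole of mt-Nd4l (chrM:9877-10173, plus strand) is shown because its pseudogene Gm10222 on chromosome 1 was identical over all 294 aligned bases. Capitals mark the bases beyond the annotated end of Gm10222, where the copy Gm28439 adjoins it, and do not show a difference:
mt-Nd4l: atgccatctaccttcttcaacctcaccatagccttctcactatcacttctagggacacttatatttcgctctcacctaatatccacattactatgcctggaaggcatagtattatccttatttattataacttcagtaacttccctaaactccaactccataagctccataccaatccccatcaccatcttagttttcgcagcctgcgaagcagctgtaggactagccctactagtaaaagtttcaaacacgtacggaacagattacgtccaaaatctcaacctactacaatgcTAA

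The first 100 bases of mt-Nd3 (chrM:9459-9558, plus strand) are set against those of its copy Gm28438 (chr1:24613020-24613119, minus strand), since this pair held the only difference in the gene. Capitals mark the base that differs, and 344 of 345 aligned bases were identical:
mt-Nd3: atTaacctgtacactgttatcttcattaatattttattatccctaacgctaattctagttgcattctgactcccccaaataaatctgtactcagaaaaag
Gm28438: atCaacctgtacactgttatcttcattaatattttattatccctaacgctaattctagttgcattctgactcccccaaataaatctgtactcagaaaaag

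Bases 501 to 600 of mt-Co1 (chrM:5828-5927, plus strand) and of its copy Gm13340 (chr2:22589048-22589147, minus strand) are shown for a gene that was counted. Capitals mark the 4 differences in this stretch, out of 37 over the 1545 bases of the gene:
mt-Co1: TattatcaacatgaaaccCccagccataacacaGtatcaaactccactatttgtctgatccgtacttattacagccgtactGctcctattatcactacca
Gm13340: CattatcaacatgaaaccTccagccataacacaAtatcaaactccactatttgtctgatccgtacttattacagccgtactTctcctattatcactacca

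The same bases, 501 to 600, are shown for mt-Cytb (chrM:14645-14744, plus strand) and its closest annotated copy Gm11410 (chr4:80004489-80004588, plus strand), as a counted gene whose copy has diverged further. Capitals mark 8 differences here, out of 81 over 1142 aligned bases:
mt-Cytb: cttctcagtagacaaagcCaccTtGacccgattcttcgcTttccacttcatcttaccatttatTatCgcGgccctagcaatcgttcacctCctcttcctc
Gm11410: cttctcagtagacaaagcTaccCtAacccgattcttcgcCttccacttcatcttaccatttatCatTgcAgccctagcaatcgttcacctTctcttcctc

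Of the 6 uncounted protein genes, all but mt-Atp8 had a near-identical copy among the annotated nuclear transcripts, the only ones searched. Of the 100-base windows that fit inside each gene, the share found letter for letter in an annotated nuclear transcript was 99.5% for mt-Co2 and for mt-Atp6, 99.9% for mt-Co3, 97.6% for mt-Nd3 and 98.5% for mt-Nd4l. Among the 7 counted protein genes the share was 60.8% for mt-Nd4, 30.8% for mt-Co1 and 3.19% for mt-Nd2, and it was 0% for mt-Nd1, mt-Nd5, mt-Nd6 and mt-Cytb and for both rRNA genes. The copies of mt-Co2, mt-Atp6, mt-Co3, mt-Nd3, mt-Nd4l and of part of mt-Nd4 and mt-Co1 lie side by side on the minus strand of chromosome 1, from base 24611535, where Gm28439 begins, to base 24616197, where Gm29216 ends. mt-Atp8 (chrM:7766-7969) is the exception, with a share of 0% and 63 windows that touch no other gene, yet no read. It lies between mt-Co2 and mt-Atp6, and the sequence between their copies on chromosome 1 was not read here. Whether these matches account for the 0s was not tested.

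**Figure D1:**
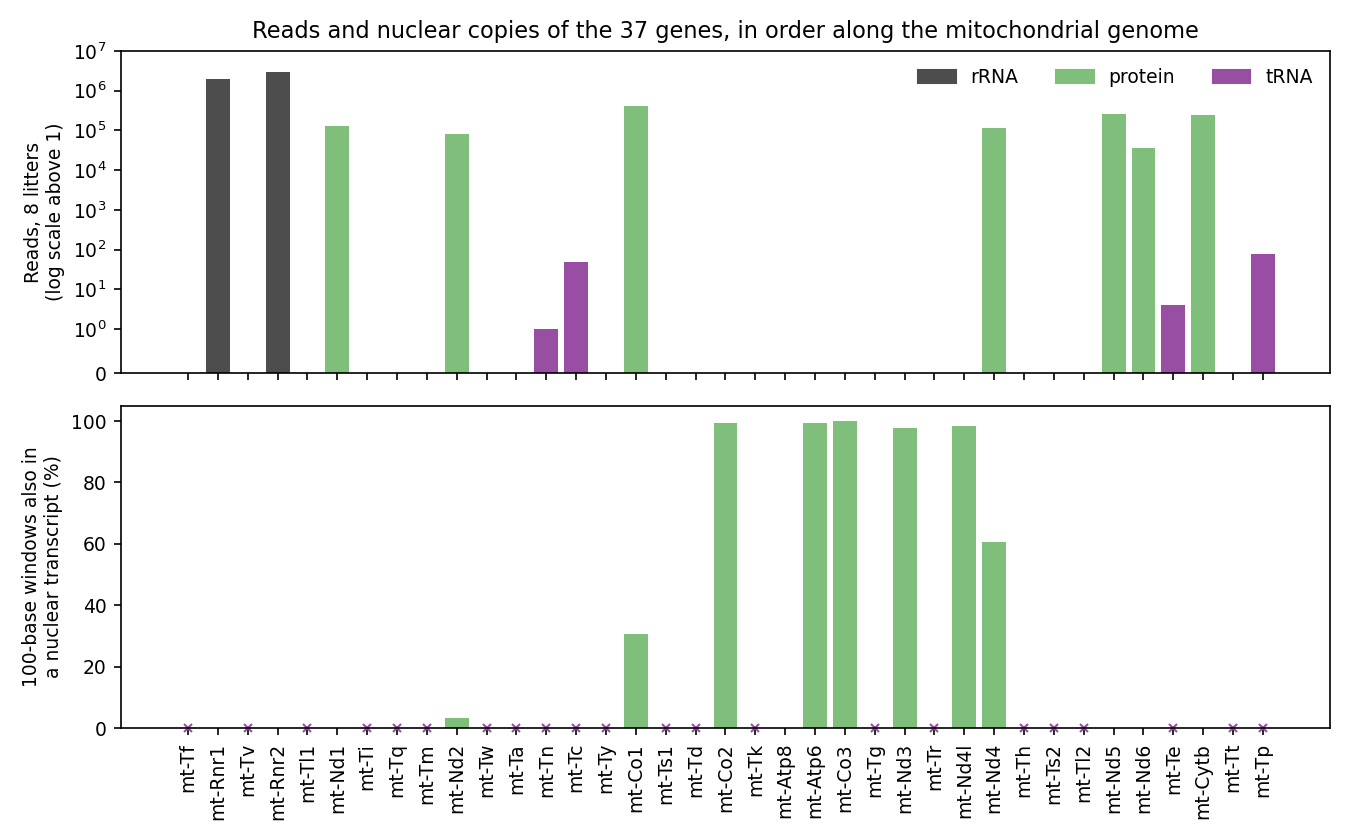
Total reads over 8 litters (top, log scale above 1) and the share of 100-base windows also present in a nuclear transcript (bottom, %) for the 37 genes in their order along the mitochondrial genome, with crosses for tRNA genes too short to hold a window. The run from mt-Ts1 to mt-Nd4l had no read, and 5 of its protein genes had shares from 97.6% to 99.9%.

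The copies themselves drew few reads. Of the 9 listed nuclear copies, 3 reached 10 reads in a litter. Gm28438, the copy of mt-Nd3, had 0, 17, 4 and 0 reads in the E12.5 litters, then 17, 9, 27 and 12 in the P0 litters. Gm10222, the copy of mt-Nd4l, had 1, 4, 1 and 0 reads and 3, 14, 8 and 3 reads. Gm13340, a copy of mt-Co1 on chromosome 2, had 1, 14, 11 and 7 reads and 25, 16, 7 and 12 reads, against 405849 reads on mt-Co1 itself over all litters. The other copies had at most 9 reads in total.

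The tRNA genes measure 59 to 75 bases, so a read of 100 bases always runs past them. For 19 of the 22 no window of that length touches the gene and no other, and of these 19 only mt-Te had reads, 2 in NPD4 and 2 in NPD27. The other 3 all had reads. They were mt-Tn with 6 such windows and 1 read in all, mt-Tc with 1 window and 50 reads, and mt-Tp with 67 windows and 77 reads. Counted by strand, 13 tRNA genes would have windows of their own, and 9 of these were listed at 0. The genes with most of the tRNA reads are those for cysteine, mt-Tc (chrM:5192-5257), and proline, mt-Tp (chrM:15356-15422), both on the minus strand and printed here because together they hold nearly every tRNA read:
mt-Tc: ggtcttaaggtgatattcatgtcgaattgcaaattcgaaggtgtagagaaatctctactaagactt
mt-Tp: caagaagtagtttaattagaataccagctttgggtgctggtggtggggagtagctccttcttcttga

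The other 18 tRNA genes, listed at 0, were mt-Tf, mt-Tv, mt-Tl1, mt-Ti, mt-Tq, mt-Tm, mt-Tw, mt-Ta, mt-Ty, mt-Ts1, mt-Td, mt-Tk, mt-Tg, mt-Tr, mt-Th, mt-Ts2, mt-Tl2 and mt-Tt. All 22 together drew 14, 20, 17 and 6 reads in the E12.5 litters, then 34, 19, 8 and 14 in the P0 litters, 132 in all. A full read of 100 bases cannot come whole from a gene this short, and no level of mature tRNA can be read from them. mt-Tp had 0, 16, 5 and 5 reads at E12.5, then 19, 13, 8 and 11 at P0, so the stages overlapped. mt-Tc had 14, 4, 10 and 1 reads at E12.5, then 15, 4, 0 and 2 at P0, and these overlapped too.

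The mitochondrial genes took a large and variable part of the reads counted on genes in every library. They drew 9.23%, 19.5%, 13.6% and 11.0% of the reads counted on genes in the E12.5 litters NDP10.2, NPD3, NPD4 and NPD9.2, a mean of 13.3% ± 4.47 (SD, n = 4). At P0 they drew 14.2%, 13.5%, 8.41% and 10.4% in NPD26, NPD27, NPD28 and NPD30, a mean of 11.6% ± 2.72 (SD, n = 4). The ranges overlapped, and the difference of -1.71 percentage points was smaller than either SD. Without NPD3, the highest litter, the P0 mean lay above the E12.5 mean by 0.344 points. The 2 rRNA genes made up 76.7% to 80.4% of these reads at E12.5, then 77.1% to 84.6% at P0, the highest in NPD28. The libraries were made from total RNA, and in bulk samples fewer cells of a type and less RNA per cell cannot be told apart.

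**Figure D2:**
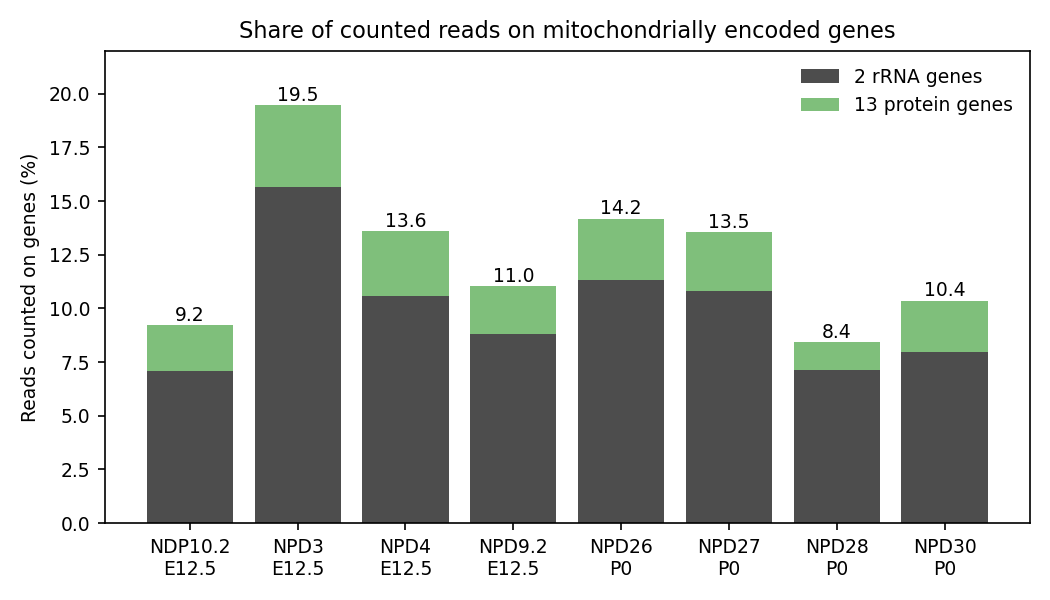
Percent of all reads counted on genes that fell on mitochondrial rRNA genes (grey) and protein genes (green) in each litter, with their sum above each bar; tRNA genes are too few to see. The E12.5 litters range from 9.2 to 19.5% and the P0 litters from 8.4 to 14.2%.

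The rRNAs came first. Levels are given in CPM, the count of a gene scaled to the TMM library size. mt-Rnr1, the rRNA of the small ribosomal subunit (chrM:70-1024), had 31457, 62949, 37951 and 42049 CPM in the E12.5 litters, then 38792, 43624, 23664 and 33902 CPM in the P0 litters. mt-Rnr2, the rRNA of the large subunit (chrM:1094-2675), had 44234, 92542, 53858 and 54064 CPM and then 74835, 64000, 50915 and 45878 CPM. NPD3 was the highest litter for both, and the P0 values lay within the E12.5 range, apart from NPD28 for mt-Rnr1. By number of reads mt-Rnr2 ranked 2 among all genes in every litter, behind Gm42418, and mt-Rnr1 ranked 3 to 5. The ratio of mt-Rnr2 to mt-Rnr1 reads was 1.41, 1.47, 1.42 and 1.29 at E12.5 against 1.93, 1.47, 2.15 and 1.35 at P0. Only NPD26 and NPD28 stood above the E12.5 litters, so the stages overlapped on this ratio.

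Complex I takes electrons from NADH, and 5 of its mitochondrial subunits were counted. mt-Nd5 (chrM:11742-13565) had 4278, 7800, 6222 and 4621 CPM in the E12.5 litters, then 5549, 5354, 2478 and 4868 CPM in the P0 litters. mt-Nd1 (chrM:2751-3707) had 2719, 3829, 2680 and 3021 CPM and then 3028, 2634, 1300 and 2187 CPM. mt-Nd4 (chrM:10167-11544) had 2135, 4142, 2561 and 2235 CPM and then 2267, 2354, 956 and 1878 CPM. For each of the 3 the P0 litter NPD28 was the lowest of all 8 and NPD3 the highest. mt-Nd2 (chrM:3914-4951) had 1392, 2765, 1702 and 1502 CPM at E12.5, then 1717, 1796, 762 and 1324 CPM at P0. mt-Nd6 (chrM:13552-14070) had 556, 1274, 721 and 563 CPM at E12.5, then 766, 814, 326 and 744 CPM at P0. mt-Nd6 is the only protein gene on the minus strand and lies opposite the long plus-strand RNA, so without a stated strand setting its reads cannot be assigned to a strand. The stages overlapped for all 5 genes.

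mt-Cytb, the cytochrome b of complex III (chrM:14145-15288), had stages that did not overlap, 1 of the 10 mitochondrial genes that passed the filter on low counts, beside 29.9% of all 15467 genes that passed it. It had 5447, 7281, 5220 and 5452 CPM in the E12.5 litters, then 5022, 4975, 2182 and 3781 CPM in the P0 litters. The gap between the lowest E12.5 and the highest P0 litter was narrow beside the spread within P0. mt-Co1, the catalytic subunit of complex IV (chrM:5328-6872), had 6511, 10694, 7024 and 7027 CPM at E12.5, then 10133, 9477, 5607 and 8942 CPM at P0. Here 3 of the 4 P0 litters lay above 3 of the 4 E12.5 litters, with NPD3 and NPD28 outside.

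**Figure D3:**
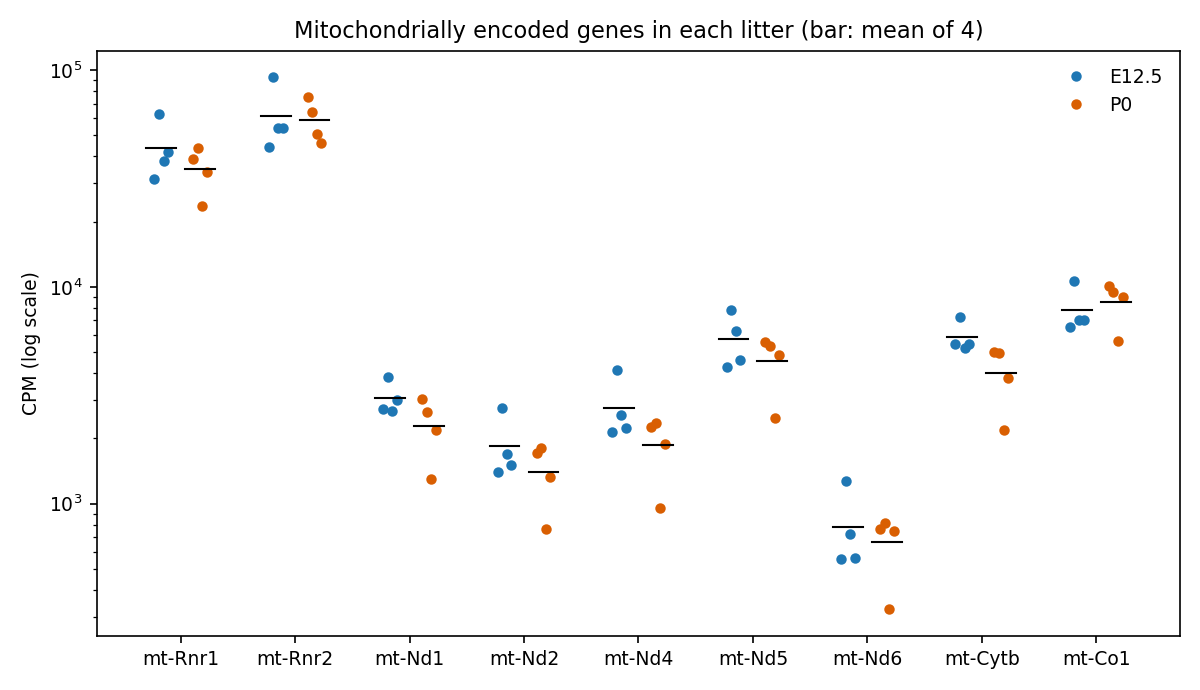
CPM (log scale) of the 9 counted rRNA and protein genes in each E12.5 litter (blue) and P0 litter (orange), with a bar at the mean of 4. For 8 of the 9 genes the stages overlap, and mt-Cytb spans 5220 to 7281 CPM at E12.5, then 2182 to 5022 CPM at P0.

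The 9 genes moved together from litter to litter. NPD3 was the highest litter for all 9 and NPD28 the lowest for 8, the exception being mt-Rnr2, which was lowest in NDP10.2. The highest litter exceeded the lowest by 1.91 times for mt-Co1, at the low end, and 4.33 times for mt-Nd4, at the high end. Across the 8 litters the correlation of log2 CPM between 2 of the genes had a median of 0.883 over 36 pairs and ranged from 0.506 to 0.986. These points share libraries and depth, and the figures are a description only.

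Per length, as CPM per kb of gene, the levels fell into tiers. At E12.5 mt-Rnr1 (45656 ± 14257, SD, n = 4) and mt-Rnr2 (38669 ± 13533) came first, then mt-Cytb (5114 ± 839) and mt-Co1 (5058 ± 1253), then mt-Nd1 (3200 ± 557) and mt-Nd5 (3142 ± 888), then mt-Nd4 (2009 ± 678), mt-Nd2 (1773 ± 606) and mt-Nd6 (1500 ± 653). Neighbours within a tier differed by less than the larger of their SDs, a spread between litters that does not compare genes within a litter. Within litters mt-Rnr1 lay above mt-Rnr2, mt-Nd4 above mt-Nd2 and mt-Nd2 above mt-Nd6 in 4 of 4. In 3 of 4 mt-Cytb lay above mt-Co1, and in 2 of 4 mt-Nd1 lay above mt-Nd5. At P0 mt-Rnr2 (37236 ± 8268) and mt-Rnr1 (36644 ± 8936) were level, mt-Co1 (5527 ± 1304) lay above mt-Cytb (3488 ± 1167) in 4 of 4 litters, and mt-Nd5 (2501 ± 778), mt-Nd1 (2390 ± 776), mt-Nd4 (1353 ± 464), mt-Nd2 (1348 ± 455) and mt-Nd6 (1277 ± 436) followed. There mt-Cytb and mt-Nd5, mt-Nd5 and mt-Nd1, mt-Nd4 and mt-Nd2, and mt-Nd2 and mt-Nd6 were neighbours that differed by less than the larger of their SDs. Within the P0 litters mt-Cytb lay above mt-Nd5 in 4 of 4. In 3 of 4 mt-Nd5 lay above mt-Nd1 and mt-Nd2 above mt-Nd6, and in 1 of 4 mt-Nd4 lay above mt-Nd2. The place of mt-Nd4 differs with what its reads are divided by. Per 100-base window with no match in a nuclear transcript, a scale on which matched windows are taken to give no counts, which was not tested, mt-Nd4 had 223 reads over all litters, mt-Cytb 225 and mt-Co1 406, against 150 for mt-Nd1, 147 for mt-Nd5, 86.7 for mt-Nd2 and 84.1 for mt-Nd6.

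Differences between the stages were tested with edgeR's quasi-likelihood test on all 15467 genes that passed the filter on low counts, with Benjamini-Hochberg adjustment and a threshold of 0.05. Of the 37 mitochondrial genes 10 passed the filter, the 7 counted protein genes, both rRNA genes and mt-Tp. None of the 10 was called, against 27.9% of all genes tested, of which 16.0% were higher and 12.0% lower at P0. None had an unadjusted p under 0.05 in edgeR, in DESeq2 or in limma-voom either. The adjusted p of edgeR's quasi-likelihood test ran from 0.279 for mt-Cytb to 0.938 for mt-Rnr2.

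The log2 fold changes, P0 over E12.5, were below 0 for 8 of the 10 genes, with a median of -0.32 beside 0.04 over all genes tested. mt-Nd4 had the lowest at -0.57 (SE 0.38, adjusted p = 0.29 in edgeR's quasi-likelihood test), followed by mt-Cytb at -0.55 (SE 0.36, adjusted p = 0.279). The values were -0.42 for mt-Nd1, -0.39 for mt-Nd2, -0.33 for mt-Nd5, -0.32 for mt-Rnr1, -0.23 for mt-Nd6 and -0.05 for mt-Rnr2. Those above 0 were mt-Co1 at 0.13 (SE 0.35) and mt-Tp at 0.58 (SE 0.84). Among the 95% confidence intervals of the 9 rRNA and protein genes the lowest bound was a fold of 0.379, for mt-Nd4, and the highest a fold of 1.86, for mt-Co1, each bound holding for its own gene. The interval of mt-Tp, from 0.412 to 5.40, was wider, on 77 reads.

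**Figure D4:**
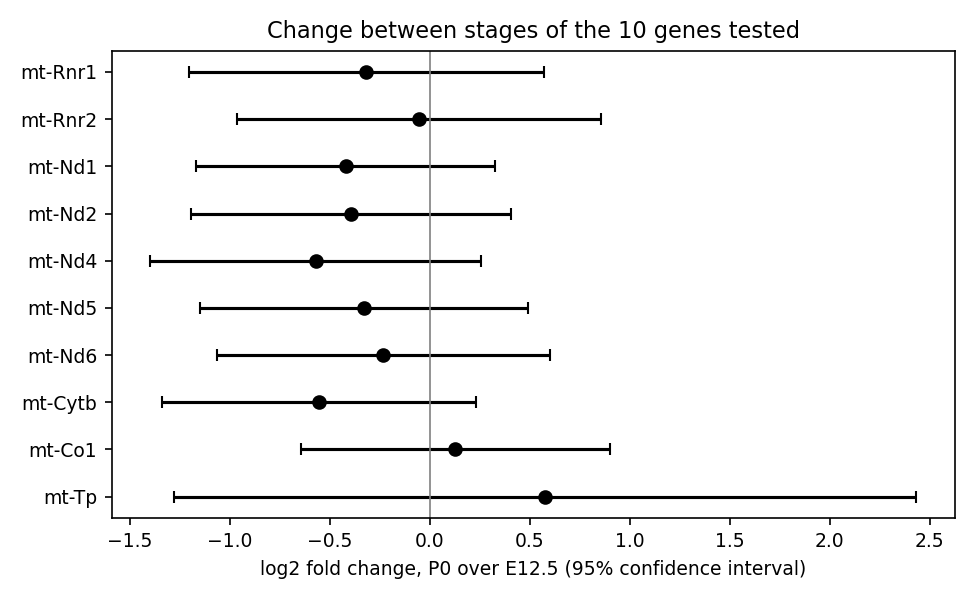
log2 fold change, P0 over E12.5, with its 95% confidence interval, for the 10 mitochondrial genes tested by edgeR. Every interval contains 0, and 8 of the 10 points lie below it.

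Single litters moved these values. Without NPD28 the median over the 10 genes was -0.14 and without NPD3 it was -0.15, and without either litter none of the 10 was called. NDP10.2 and NPD9.2, both E12.5, had 16.3% and 17.5% of their tallied reads ambiguous between genes, against 7.07% to 11.6% in the other litters. With both left out, a choice made after seeing the data, all 10 log2 fold changes were below 0, the median was -0.60, and again none was called by edgeR or had an unadjusted p under 0.05.

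Within the mitochondrial protein-gene reads, the shares of mt-Co1, mt-Cytb and mt-Nd4 separated the stages in every litter, with mt-Co1 higher at P0 and both others lower. These shares were not tested, since they are sums over the set. They add up to 100%, so a higher share of 1 gene goes with lower shares of others, and the level of mt-Co1 itself overlapped between stages. On the CPM scale, which is not that of these shares, the stages did not overlap for 29.9% of all 15467 genes tested. mt-Co1 held 28.3%, 28.3%, 26.9% and 28.8% of the reads on protein genes in the E12.5 litters (28.1% ± 0.817, SD, n = 4) and 35.6%, 34.6%, 41.2% and 37.7% in the P0 litters (37.3% ± 2.92, SD, n = 4). The stages did not overlap, and the difference of 9.21 percentage points exceeded both SDs. NPD28, the litter with the lowest levels, had the largest mt-Co1 share.

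mt-Cytb held 23.6%, 19.3%, 20.0% and 22.3% at E12.5 against 17.6%, 18.2%, 16.0% and 15.9% at P0, also with no overlap. mt-Nd4 held 9.27%, 11.0%, 9.80% and 9.15% at E12.5 against 7.96%, 8.59%, 7.03% and 7.92% at P0, again apart. The shares of mt-Nd1, mt-Nd2, mt-Nd5 and mt-Nd6 overlapped between stages. Together the 5 counted complex I genes held 48.1% to 53.1% at E12.5 against 42.8% to 47.3% at P0, without overlap. That is the part which mt-Co1 and mt-Cytb leave, so it is not a separate result. The ratio of mt-Co1 to mt-Cytb reads, 2 genes on the same strand, was 1.2, 1.47, 1.35 and 1.29 at E12.5 against 2.02, 1.90, 2.57 and 2.36 at P0. This ratio follows from the shares of the 2 genes and is not a separate result either.

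The separation of mt-Co1 did not rest on a single litter, since leaving out each in turn gave differences from 7.90 to 10.1 percentage points. It was 9.67 points with NDP10.2 and NPD9.2 left out. Set against only mt-Nd1, mt-Nd5, mt-Nd6 and mt-Cytb, the protein genes with no window in a nuclear transcript, mt-Co1 reads came to 47.3% to 53.0% of theirs at E12.5 and 68.8% to 89.2% at P0. As a share of all mitochondrial reads, rRNA included, mt-Co1 held 5.53% to 6.59% at E12.5 against 6.36% to 8.64% at P0, and those ranges overlapped. On that scale mt-Cytb held 3.77% to 5.52% at E12.5 against 2.47% to 3.68% at P0, without overlap. The ranges of mt-Nd4 also stayed apart, at 1.85% to 2.17% against 1.08% to 1.81%. The part that isolation by sorting has in these differences cannot be told apart from stage.

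**Figure D5:**
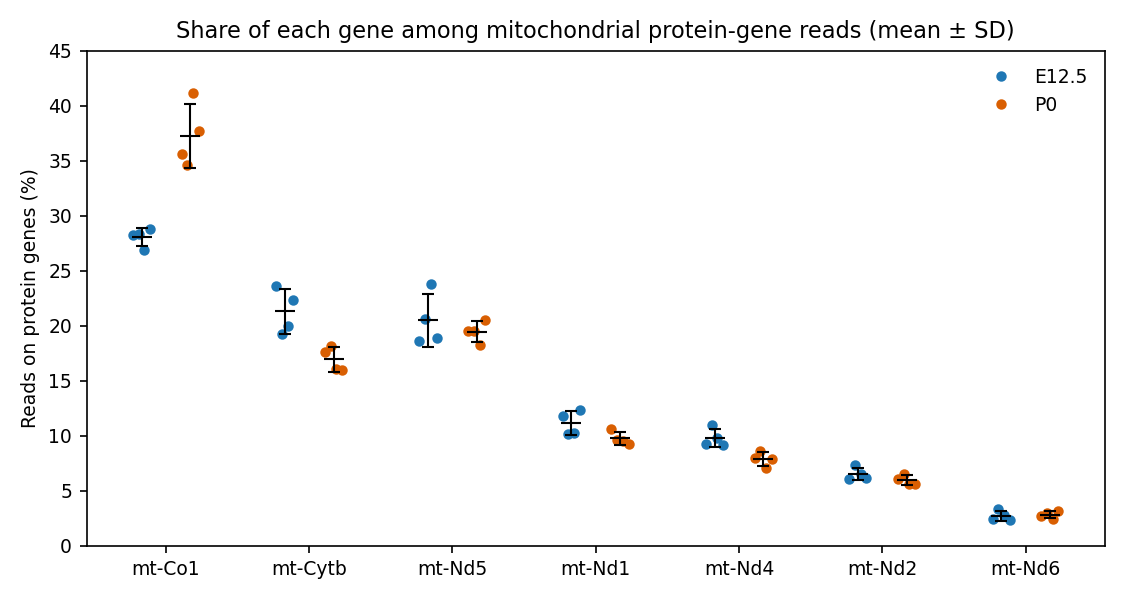
Percent of the reads on mitochondrial protein genes that fell on each counted gene in the E12.5 (blue) and P0 litters (orange), with mean ± SD. mt-Co1 lies at 26.9 to 28.8% at E12.5 against 34.6 to 41.2% at P0, while mt-Cytb and mt-Nd4 lie lower at P0.

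Nuclear genes that maintain, read and complete the mitochondrial genome were taken from lists, and in the same test 13 of their 266 tested genes were called, or 4.89%, beside the 27.9% over all genes. POLRMT transcribes mitochondrial DNA, TFAM packages it and starts its transcription, and PGC-1α, from Ppargc1a, drives mitochondrial biogenesis. Polrmt was at 22.7 ± 8.30 CPM at E12.5, then 20.0 ± 1.89 CPM at P0 (SD, n = 4), Tfam at 40.6 ± 9.46 and 33.0 ± 4.73 CPM, and Ppargc1a at 8.84 ± 4.01 and 6.07 ± 1.32 CPM. Their log2 fold changes of -0.17, -0.30 and -0.55 did not pass the test. None of the 12 tested regulators of biogenesis was called by edgeR, DESeq2 or limma-voom on all litters, with 1 under an unadjusted p of 0.05 in edgeR. Without NDP10.2 edgeR called 1, Nrf1, which was named after its values were seen (log2 fold change -0.78, adjusted p = 0.0364 in edgeR's quasi-likelihood test).

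Among 23 genes of mitochondrial DNA maintenance and transcription 2 rose and none fell. Rrm2b, a ribonucleotide reductase subunit that supplies deoxynucleotides outside S phase, had 9.2, 16.4, 10.6 and 5.41 CPM at E12.5, then 25.6, 25.4, 41.9 and 27.3 CPM at P0 (log2 fold change 1.52, adjusted p = 0.00801 in edgeR's quasi-likelihood test). The other was Tk2, the mitochondrial thymidine kinase, named after its values were seen (log2 fold change 1.33, adjusted p = 0.023 in edgeR's quasi-likelihood test), with NPD30 inside the E12.5 range at 10.6 CPM. Among 37 genes of RNA processing and decay, Mrm1, which methylates mitochondrial rRNA, rose by 1.70 on the log2 scale, and Dhx30, a helicase of mitochondrial RNA granules, fell by 2.65 from 3.37 ± 1.44 to 0.512 ± 0.393 CPM (SD, n = 4). The P0 values of Dhx30 were 0, 0.433, 0.706 and 0.910 CPM. Before TMM scaling, 3 counts equal 0.471 CPM in NPD26 and 0.434 CPM in NPD27. The fold change of Dhx30 thus rests on very few P0 reads. Among 26 genes of tRNA modification and mitochondrial translation factors, 4 tRNA-modifying enzymes were called. Of these 2 rose, Pus1 (log2 fold change 1.02) and Nsun3 (0.85), and 2 fell, Qtrt1 (-0.98) and Alkbh1 (-0.62). None of the 22 mitochondrial aminoacyl-tRNA synthetases was called by the 3 tools, with 1 under an unadjusted p of 0.05 in edgeR.

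The nuclear partners of the counted complexes gave few calls. None of 36 nuclear complex I subunits and none of 9 complex III subunits was called by edgeR, with 3 and 1 under an unadjusted p of 0.05. DESeq2 called 1 complex I subunit, Ndufa3, and limma-voom none, and neither called a complex III subunit. Ndufa3, named after its values were seen, was also called by edgeR without NPD3 (log2 fold change -1.05) and without NPD4. In complex IV 2 of 13 were called. Cox4i2, an alternative form of subunit 4 known from lung and from the response to low oxygen, had 7.08, 5.07, 4.59 and 7.13 CPM at E12.5, then 80.2, 37.6, 59.8 and 148 CPM at P0, so every P0 litter lay far above every E12.5 litter (log2 fold change 3.78, SE 0.43, adjusted p = 0.000277 in edgeR's quasi-likelihood test). Cox7c, a small structural subunit, fell by 1.19 on the log2 scale, from 10.9 ± 2.85 to 4.77 ± 0.549 CPM (SD, n = 4). Cox4i1, the common form of subunit 4, named after its values were seen, was at 239 ± 40.9 and 271 ± 95.5 CPM and was not called (log2 fold change 0.18). Of 15 ATP synthase subunits only Atp5e fell (log2 fold change -0.80), and of 74 mitochondrial ribosomal proteins Mrpl11 (-0.93) and Mrpl58 (-0.76) fell and none rose. The 13 calls over all lists depended on the tool and on the litters. There were 27 with DESeq2 and 14 with limma-voom. With 1 E12.5 litter left out edgeR called 7 (NDP10.2), 9 (NPD3), 11 (NPD4) and 5 (NPD9.2). With 1 P0 litter left out it called 8 (NPD26), 4 (NPD27), 6 (NPD28) and 8 (NPD30). Without NDP10.2 and NPD9.2 together it called 2. Cox4i2 and Rrm2b were called by edgeR with each of the 8 litters left out in turn, Mrm1 and Dhx30 in 6 of those fits, Tk2 in 4, Cox7c and Mrpl11 in 3, Pus1, Nsun3, Qtrt1, Atp5e and Mrpl58 in 1 and Alkbh1 in none, and all 13 kept their sign in all 8. DESeq2 called all 13 genes and limma-voom all but Tk2. The medians of the 10 lists lay between -0.31 and 0.12, beside 0.04 over all genes.

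Markers of other cell types were unequal between litters, and the part of such cells in the mitochondrial values was not tested. Notochord and NP markers were detected at both stages, at 2382 to 6367 summed CPM at E12.5, then 8220 to 31820 at P0. None of the 10 was at 0 in all litters of a stage. A summed CPM does not show each marker. Among these markers the paper reported Shh lower at P0, T, Krt8 and Krt18 stable, and Krt19, Cd24 and Car3 higher. The P0 litter NPD28, lowest in 8 of the 9 counted rRNA and protein genes, was the highest of all litters for neutrophil and leukocyte markers but not for the other lists. The 8 neutrophil markers summed to 4.01 to 15.8 CPM at E12.5, with 1 at 0 throughout, against 764 to 6678 CPM at P0, and the 10 leukocyte markers to 61.5 to 125 against 364 to 4109 CPM. The 7 macrophage markers summed to 68.5 to 181 CPM against 303 to 7074 CPM, with NPD27 highest and NPD28 at 3507 CPM. The 7 osteoblast markers, 2 of them at 0 in all E12.5 litters, summed to 239 to 1274 CPM against 3146 to 12110 CPM, with NPD30 highest. Lists that were higher at E12.5, without overlap, were the 9 erythroid markers (10140 to 49400 against 363 to 1247 CPM), the 8 of skeletal muscle (160 to 882 against 26.1 to 137 CPM), the 7 of hepatocytes (63.0 to 741 against 2.67 to 3.60 CPM) and the 7 of sclerotome (159 to 224 against 14.7 to 29.4 CPM). Neuron (194 to 2963 against 461 to 1087 CPM) and chondrocyte markers (2345 to 8666 against 1874 to 8540 CPM) overlapped between stages. The paper measured Col1a1, of the osteoblast list, and Col2a1 and Acan, of the chondrocyte list, as mRNA of notochord-derived cells. Sums of the osteoblast and chondrocyte lists thus cannot be assigned to other cells. The libraries held 4442775 to 7180221 counted reads at E12.5, then 6371842 to 8904050 at P0, which were 22.6% to 34.8% of the reads tallied, and reads with more than 1 alignment were 26.3% to 33.7% of them. At these depths 3 counts equal 0.337 to 0.675 CPM before TMM scaling, a floor that covers counting error only.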

How the data were processed

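Total RNA of 4 E12.5 and 4 P0 litters was sequenced. The authors' alignment used STAR 2.4.0j and GRCm38, and the deposited values are raw counts per gene and litter, made by htseq-count on the Gencode M4 annotation. Mitochondrial genes were found by symbol, with positions and sequences from Gencode M21 on the same build. Counts were tested in R 4.3.3 with edgeR 4.0.16 (TMM, filterByExpr with a minimum count of 10 and a minimum total of 15, robust quasi-likelihood F-test, Benjamini-Hochberg adjustment), and DESeq2 1.42.0 and limma 3.58.1 were alternatives. A standard error is the log2 fold change divided by the square root of F. The p-values weigh the difference between stages against the spread between litters. Mitochondrial transcripts were compared with all other transcripts by BLAST 2.17.0 (e-value 1e-05), and every 100-base window was looked up in the transcripts matched, on both strands, and against the borders of neighbouring genes. The edgeR, DESeq2 and limma fits were also run on counts simulated with known fold changes, from the means and dispersions of these data. All protein and rRNA genes were named, and from each nuclear list, of which 1 symbol in 26 of the maintenance list was not found, up to 3 called genes in each direction whose litters did not overlap, together with Polrmt, Tfam and Ppargc1a. The genes, lists and tests were chosen with earlier results of these data known. Rows that name no gene stayed out of the library sizes.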

Additional observations from a re-analysis of the deposited data

Results flagged for a closer look

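In 78 groups of 4 litters, over the levels and shares of the mitochondrial genes, 6 held a litter whose gap to the nearest of the others was too large a part of the group's range by Dixon's test at the 95% level; chance gives about 1 in 20 and many of these values share reads. NPD3 stood above the other E12.5 litters for mt-Co1 at 10694 CPM and for mt-Cytb at 7281 CPM. NPD28 stood below the other P0 litters for mt-Nd6 at 326 CPM and for the share of mitochondrial reads on mt-Cytb at 2.47%. NPD9.2 stood below the other E12.5 litters for the share of mitochondrial reads on mt-Nd2 at 1.25% and on mt-Nd4 at 1.85%. The cause of these gaps was not tested.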

How the results depend on the processing

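No mitochondrial gene was called under any of the 17 alternatives, and the lowest adjusted p of each ranged from 0.163 (mt-Cytb, DESeq2) to 0.49 (mt-Cytb, without P0 replicate 3). Of 169 values of single genes under the alternatives, 163 kept their sign. The exceptions were mt-Rnr2, above 0 without NPD3, NPD28 or NPD30 (range over the litters left out, -0.227 to 0.178), mt-Nd6, above 0 without NPD3 (-0.406 to 0.0772), and, with NDP10.2 and NPD9.2 left out, mt-Co1 at -0.0911 and mt-Tp at -0.0041. The difference in the mitochondrial share ranged from -3.07 to 0.344 percentage points when a litter was left out. It was -0.0376 points with all tallied reads as denominator and -1.97 points with globin genes left out of the denominator. The difference in the mt-Co1 share was 1.31 points with all mitochondrial reads as denominator and 26.0 points relative to mt-Nd1, mt-Nd5, mt-Nd6 and mt-Cytb, a comparison added after seeing the data, and both are on other scales by construction. Of the nuclear list genes, 13 were called at first, 8 with no filter, 27 by DESeq2, 4 to 11 with a litter left out and 2 with NDP10.2 and NPD9.2 left out. No paired analysis was possible because the labels give the litters no shared numbers. The spread between litters limits the 9 counted rRNA and protein genes, and the files give no level for the 24 genes listed at 0 or for mature tRNAs.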
